A study of Homo sapiens with 6 samples.

Results

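The genes described here are the chaperones of the endoplasmic reticulum (ER), the enzymes and carriers that fold and move secretory proteins, the machinery of ER-associated degradation (ERAD) and the sensors of unfolded protein. They were chosen by name, with earlier results of these data known. They make up 41 of the 29123 gene names on Agilent Whole Human Genome arrays. Of the 41000 probes, 78 carry one of these names or an older name of the same gene. Each gene is given by its brightest probe, the one with the highest mean log2 intensity over the 6 arrays. The members fall into 12 chaperones and cochaperones, 7 enzymes of disulfide bond and proline isomerization, 10 ERAD components, 7 genes of translocation and transport, and 5 sensors or genes linked to them.

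Every array compared a modified clone of an established human ovarian cancer line with its control (Ctrl) clone, one RNA labelled with Cy3 and the other with Cy5, and every ratio is given as the log2 of modified clone over Ctrl. In SKOV3 cells, sh-S1 and sh-S2 are lentivirally transduced, puromycin-selected clones that carry an shRNA against Hic-5, a LIM-domain adaptor of focal adhesions, in the pLKO.1-puro vector, and Ctrl is a clone with a scramble sequence in the same vector. In A2780s cells, pCMV-Hic-5 is a neomycin-selected clone transfected with human Hic-5 in the pCMV6 vector, and its Ctrl carries the empty vector. Each RNA pair was hybridized on 2 arrays with the dyes exchanged. These count as 1 replicate, which leaves 2 clones in SKOV3, each of them 1 clone set against the same Ctrl RNA, and 1 clone in A2780s. Thus the SKOV3 ratios were tested with limma, without the spread of Ctrl itself, and the A2780s ratios have no replicate check and no test. The labels give 1 growth medium for both lines, the study's methods speak of different media over all its lines, and no agent that disturbs protein folding was named for any group.

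As background, proteins that enter the ER are folded by chaperones such as HSPA5 (BiP) and by oxidoreductases that form their disulfide bonds, and those that fail to fold are drawn back to the cytosol and degraded by the proteasome, which is ERAD. Unfolded protein in the lumen activates the kinase and ribonuclease IRE1 (ERN1), the kinase PERK (EIF2AK3) and the membrane-bound factor ATF6. IRE1 splices the mRNA of XBP1, spliced XBP1 and cleaved ATF6 induce chaperone and ERAD genes, and PERK slows translation and raises ATF4. The arrays read mRNA levels, so they report on the targets of these sensors and not on splicing, cleavage or phosphorylation.

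TGFB1I1, the gene of Hic-5, served as the check of the labels. In A2780s its log2 ratio was 4.05 with pCMV-Hic-5 in Cy5 and 2.60 with pCMV-Hic-5 in Cy3, that is, higher on both arrays. In SKOV3 it was -0.16 and 0.12 for sh-S1 and -0.11 and 0.28 for sh-S2 (mean 0.03 ± 0.07, SD, n = 2 clones; adjusted p = 0.855 by limma), so the targeted mRNA was not lower on these arrays. The SKOV3 arrays were dim in Cy5, as given below, which limits what low genes can show. The study reports inhibited Hic-5 expression in its knockdown clones by other assays of mRNA and protein, which are not analysed here. Both clones are therefore called here by their labels, or the sh-labelled RNAs. Of the 9 cell line and ovarian epithelial markers, 8 were tested in SKOV3 and 6 were called lower, from KRT8 at -2.14 to PAX8 at -3.58, with ERBB2 at -2.28 (adjusted p = 1.94e-05). Summed over 8 of these markers, the log2 Cy3 level was 16.10 and 16.18 in SKOV3 Ctrl, 12.98 and 12.78 in the RNA labelled sh-S1 and that labelled sh-S2, 12.05 in A2780s Ctrl and 11.90 in pCMV-Hic-5. Over 39196 probes the Cy3 levels of A2780s Ctrl, read on another slide, correlated with those of SKOV3 Ctrl at r = 0.895 and 0.89. The RNA labelled sh-S1 correlated with A2780s Ctrl at 0.952 and with SKOV3 Ctrl at 0.935 and 0.937. The RNA labelled sh-S2 correlated with A2780s Ctrl at 0.963 and with SKOV3 Ctrl at 0.928 and 0.93. The level of TGFB1I1 itself went the other way, since on the log2 Cy3 scale it was 8.39 and 8.16 in SKOV3 Ctrl, 8.67 and 8.06 in the sh-labelled RNAs, 11.84 in A2780s Ctrl and 16.32 in pCMV-Hic-5. The part of these differences in the SKOV3 ratios of the members was not tested. KRT7 and WT1 were not well above background in Cy3 in either A2780s RNA. The markers of other cell types (PTPRC, PECAM1, CDH5, CD3E, COL1A1 and DCN) summed to between 9.86 and 10.31 in all these RNAs, with PECAM1 well above background in 1 of 6 readings. The median net Cy5 signal was 9.52 to 25.5 on the SKOV3 arrays and 441 to 568 on the A2780s arrays, against 325 to 530 for Cy3.

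In A2780s pCMV-Hic-5, the mRNAs of 8 of 12 chaperones, 6 of 10 ERAD components and 2 of 5 sensors and linked genes were at least 1.5-fold higher than in Ctrl, with HERPUD1, DNAJB9 and SYVN1 at the top. Of 41 members, 19 were at least 1.5-fold higher with the same sign on both arrays and 0 were lower by that rule. Over all 22019 gene names measured, 3.42% were higher and 1.43% lower by it. The median log2 ratio was 0.52 over the members and -0.01 over all gene names. At the 2-fold level that was used in SKOV3, 12 members were higher, against 0.713% of all gene names. A ratio above 0 on both arrays was found for 35 members, against 30% of all gene names. A ratio below 0 on both was found for 4 members, against 6476 of the 22019 gene names. The dye-swapped arrays had the same sign for 39 of 41 members, all but CANX and EDEM1, against 59.4% of all gene names, and differed by a median of 0.19 with the largest gap, 0.84, at DNAJB11.

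**Figure D1:**
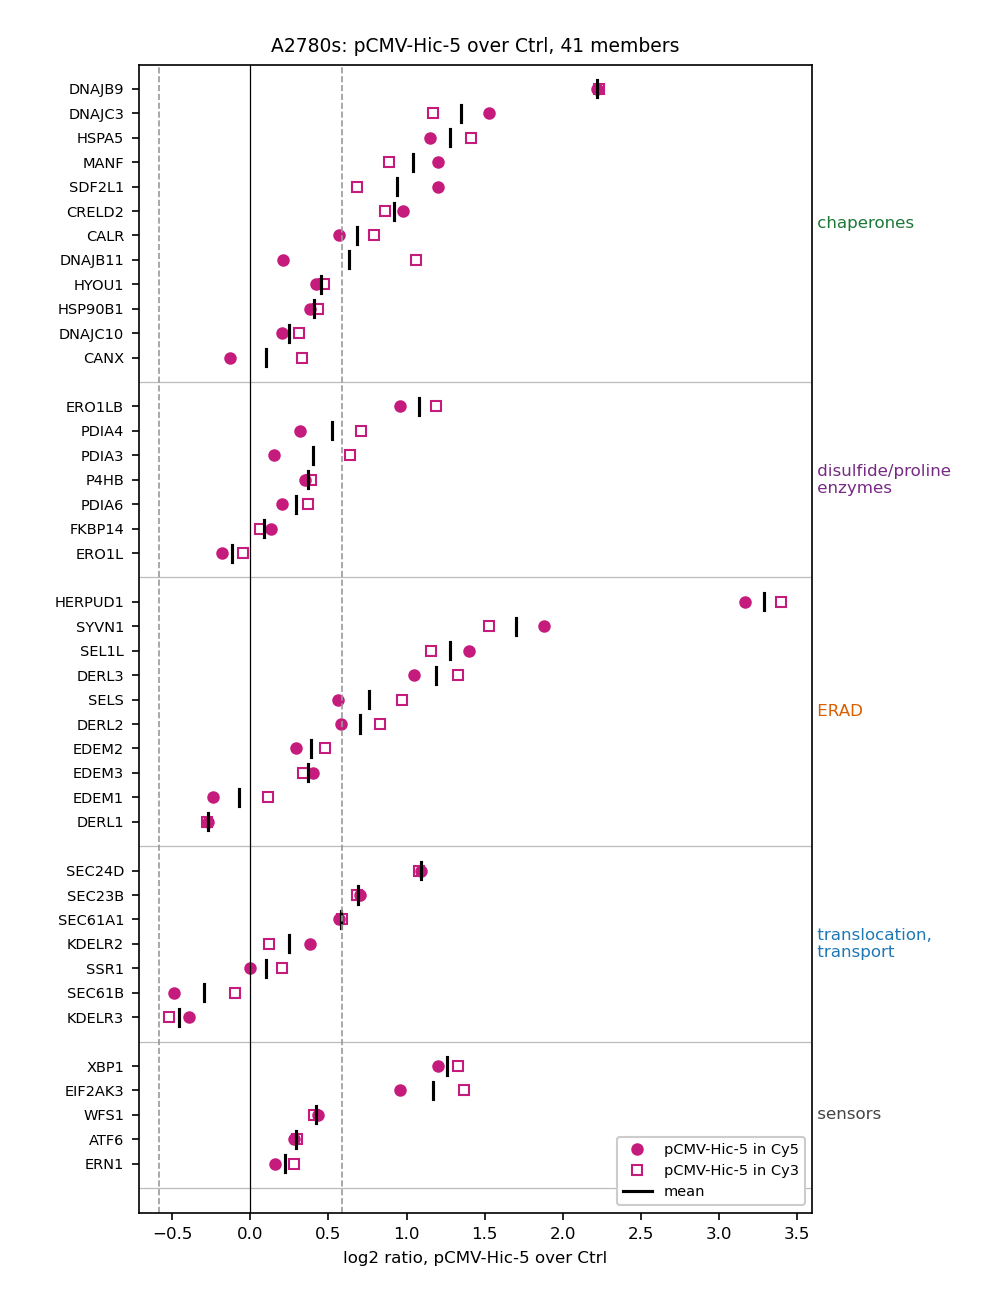
Log2 ratio of pCMV-Hic-5 over Ctrl in A2780s cells for the 41 members, grouped by role. Filled circles are the array with pCMV-Hic-5 in Cy5, open squares the array with it in Cy3, vertical bars their mean, and dashed lines mark 1.5-fold in each direction. HERPUD1 lies farthest to the right at 3.29, and no mean lies beyond the dashed line on the left.

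Among the chaperones, 8 of 12 were past the rule, with a median log2 ratio of 0.80. DNAJB9, an ER J-domain cochaperone that binds misfolded protein, gave 2.22 where pCMV-Hic-5 was in Cy5 and 2.23 where it was in Cy3, the order kept below, a 4.67-fold mean difference. DNAJC3, which restrains PERK and assists HSPA5, gave 1.53 and 1.17. HSPA5, the main Hsp70 of the ER, gave 1.15 and 1.41, a 2.43-fold mean difference. All 6 of these values lay above 2-fold. MANF, an ER protein that can be secreted, gave 1.20 and 0.89, SDF2L1, which acts with the HSPA5 system, gave 1.20 and 0.68, and CRELD2, an ER protein with a role in disulfide exchange, gave 0.98 and 0.86. The calcium-binding lectin chaperone CALR gave 0.57 and 0.79 and the cochaperone DNAJB11 gave 0.21 and 1.06, so that each passed on the mean with 1 of its arrays under 1.5-fold. The large Hsp70 relative HYOU1 at 0.45, the ER Hsp90 HSP90B1 (GRP94) at 0.41, the disulfide reductase DNAJC10 at 0.25 and CANX, the membrane-bound partner of CALR, at 0.10 were not past the rule.

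The disulfide and proline enzymes gave smaller ratios, with 1 of 7 past the rule and a median of 0.37. This member was ERO1LB, an oxidase that recharges protein disulfide isomerases, at 0.96 and 1.19, and its other probes gave 0.85 and 0.81. Its paralogue ERO1L gave -0.18 and -0.05. The isomerases PDIA4, PDIA3, P4HB and PDIA6 lay at 0.52, 0.40, 0.37 and 0.29, above 0 on both arrays and short of 1.5-fold, and the proline isomerase FKBP14 was at 0.09. A second, dimmer probe of PDIA6, singled out after its values were seen, gave 0.82 and 1.41.

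The ERAD components had 6 of 10 members past the rule, a median of 0.73 and the widest range of the groups, from -0.27 to 3.29. HERPUD1, a membrane protein that gathers the retrotranslocation complex, gave 3.17 and 3.40, which is a 9.75-fold mean difference and the largest among the members. SYVN1 (HRD1), the ubiquitin ligase of that complex, gave 1.88 and 1.53, and its partner SEL1L gave 1.40 and 1.16. All arrays of these genes stood above 2-fold. The channel-like derlins diverged, since DERL3 gave 1.05 and 1.33 and DERL2 gave 0.58 and 0.83, while DERL1 gave -0.27 and -0.28. SELS, the selenoprotein that links derlins to the p97 ATPase, gave 0.56 and 0.97. The mannosidase-like lectins EDEM2 and EDEM3, at 0.39 and 0.37, and EDEM1, at -0.24 and 0.11, were not past the rule.

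Transport genes had 2 of 7 past the rule and a median of 0.25. These were SEC24D, at 1.09 and 1.08, and SEC23B, at 0.70 and 0.68, which are cargo-binding and coat proteins of the COPII vesicles that leave the ER. SEC61A1, the channel-forming subunit of the translocon, gave 0.57 and 0.59, just short of 1.5-fold. The small subunit SEC61B was at -0.30 and the translocon-associated SSR1 at 0.10. The receptors that return escaped ER proteins also differed, with KDELR2 at 0.25 and KDELR3 at -0.39 and -0.52, the lowest mean of all 41 members.

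Of the 5 sensors and linked genes, 2 were past the rule and all were above 0 on both arrays. The transcription factor gene XBP1 gave 1.20 and 1.33, a 2.40-fold mean difference, and EIF2AK3 gave 0.96 and 1.37, a 2.25-fold difference. WFS1, the ER membrane protein lost in Wolfram syndrome, was at 0.42, ATF6 at 0.29 and ERN1 at 0.22. A second XBP1 probe, at a different site of the mRNA, gave 1.21. Neither probe is described as specific for spliced XBP1.

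**Figure D2:**
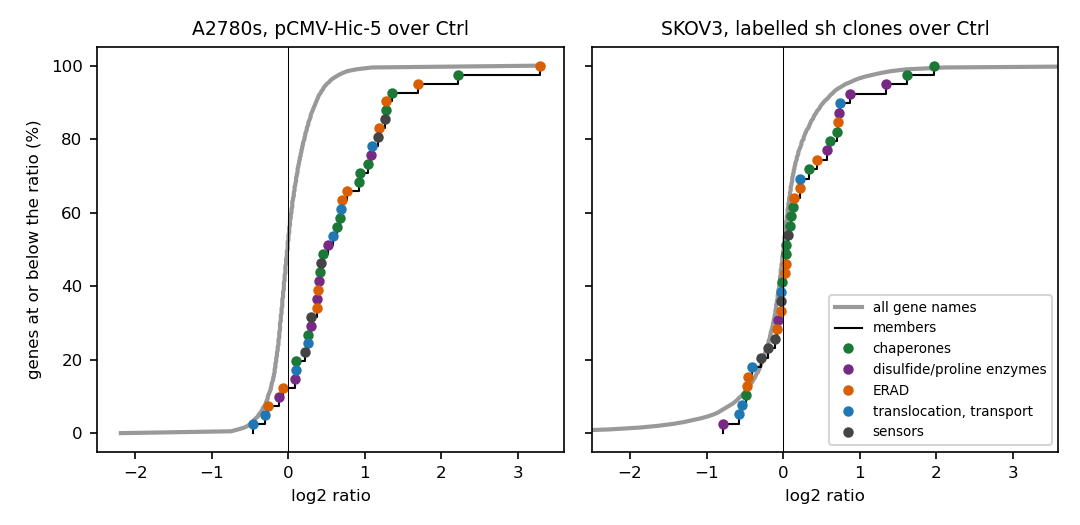
Share of genes (%) at or below each log2 ratio in A2780s (left) and SKOV3 (right), for all gene names (grey) and for the members (black steps, with points coloured by role). A few gene names lie beyond the ends of the axis. In A2780s the members' curve is shifted to the right, with a median of 0.52 against -0.01, and in SKOV3 the curves meet near 0, with medians of 0.04 and 0.01.

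Different probes of one gene did not always give the same ratio. Of the 41 members 27 had several probes, and 3 had a probe that differed from the brightest by at least 1 on the log2 scale, all in A2780s. For HERPUD1 the bright probe (hg19, chr16:56977700-56977759) gave 3.29 and a dim one further along (chr16:56977880-56977939) gave 0.20, with mean log2 intensities of 13.26 and 7.49. The dim HERPUD1 probe was well above background in Ctrl on 1 of 2 arrays. For SYVN1 the values were 1.70 and 0.49, and for DNAJC3 they were 1.35 and 0.23, where the second probe was too dim to enter the comparison. With all probes of a gene averaged, HERPUD1 was at 1.74, below DNAJB9, SEC23B was short of the rule at 0.55 and PDIA6 passed it at 0.70. In SKOV3, smaller gaps also changed which genes passed an adjusted p of 0.05 by limma. Dimmer probes of HSP90B1, DNAJC10 and KDELR2 passed it, at 0.65, -0.72 and -0.40 against 0.10, 0.09 and 0.22 for the brightest. Dimmer probes of PDIA6, CANX, SSR1 and SEC23B did not, at -0.00, -0.15, -0.23 and -0.02 against 0.88, -0.48, -0.53 and -0.40. All probes of PDIA3, P4HB, FKBP14 and HSPA5 passed it with the same sign of the mean.

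The promoters of some members hold known elements of this pathway. Since the members were chosen as its genes, the shares below are a description and not a test. Among the windows that RefSeq (GRCh38.p14) gives for 35 of the 41 members, from 250 bases before to 50 bases after the gene's start, 8 members had an exact match to the ER stress element ERSE (CCAAT, any 9 bases and CCACG) and 3 others to ERSE-II (ATTGG, any 1 base and CCACG), both searched on both strands. ERSE is bound by ATF6 together with NF-Y, and ERSE-II by ATF6 and XBP1. Over all 27305 genes with a window, 0.0916% held ERSE and 0.0696% held ERSE-II. The element UPRE (TGACGTGG), bound by XBP1, was found in 3 members and in 0.927% of all these genes. CARE (TGATGCAA), bound by ATF4, was found in 1 member and in 1.08%. No member held the cyclic AMP element TGACGTCA, which 2.25% of these genes held. UPRE and the cyclic AMP element share their first 6 letters, and the last 5 letters of ERSE and ERSE-II are, on the other strand, part of UPRE, so these matches may overlap. The stretches below are the 200 bases before the start of 5 members with a match, which were past the rule in A2780s, and of DNAJB9, which had no match and the second largest ratio. Capitals mark the fixed letters of ERSE, ERSE-II and, in HERPUD1, of CARE on the reverse strand, and the regions on GRCh38.p14 were:
HERPUD1 (chr16:56931942-56932141, plus strand): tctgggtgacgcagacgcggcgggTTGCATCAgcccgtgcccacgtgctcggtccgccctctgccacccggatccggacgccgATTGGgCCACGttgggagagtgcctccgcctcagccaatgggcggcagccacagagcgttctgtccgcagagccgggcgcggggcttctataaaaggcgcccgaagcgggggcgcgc
HSPA5 (chr9:125241344-125241543, minus strand): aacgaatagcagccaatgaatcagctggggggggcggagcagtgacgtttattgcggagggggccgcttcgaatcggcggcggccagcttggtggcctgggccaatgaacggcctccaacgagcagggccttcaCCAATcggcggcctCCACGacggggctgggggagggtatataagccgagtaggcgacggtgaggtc
XBP1 (chr22:28800570-28800769, minus strand): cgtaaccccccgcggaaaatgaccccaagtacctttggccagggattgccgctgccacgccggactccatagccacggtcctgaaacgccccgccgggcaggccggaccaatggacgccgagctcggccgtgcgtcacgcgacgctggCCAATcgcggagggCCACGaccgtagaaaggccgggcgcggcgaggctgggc
CRELD2 (chr22:49918434-49918633, plus strand): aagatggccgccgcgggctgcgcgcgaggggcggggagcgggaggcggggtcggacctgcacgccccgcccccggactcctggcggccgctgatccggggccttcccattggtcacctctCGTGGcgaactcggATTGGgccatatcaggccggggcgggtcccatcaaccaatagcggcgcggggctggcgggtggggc
SDF2L1 (chr22:21642102-21642301, plus strand): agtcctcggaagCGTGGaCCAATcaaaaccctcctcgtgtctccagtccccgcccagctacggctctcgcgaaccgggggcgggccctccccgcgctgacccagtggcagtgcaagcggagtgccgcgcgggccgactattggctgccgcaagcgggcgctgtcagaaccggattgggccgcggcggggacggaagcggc
DNAJB9 (chr7:108569674-108569873, plus strand): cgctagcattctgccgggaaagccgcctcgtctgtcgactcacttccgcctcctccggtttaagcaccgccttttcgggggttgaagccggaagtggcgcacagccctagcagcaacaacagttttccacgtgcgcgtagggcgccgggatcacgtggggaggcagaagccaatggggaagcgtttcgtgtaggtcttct

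The ERSE-II of HERPUD1 begins 117 bases before its start and the CARE 176 bases before it, the ERSE of HSPA5 begins 66 bases and that of XBP1 52 bases before the start, the latter in 1 of 2 windows. On the reverse strand, the match to ERSE in CRELD2 begins 80 bases and that to ERSE-II in SDF2L1 188 bases before the start. These members were picked from those past the rule, so their A2780s ratios, from 0.92 to 3.29, were high by choice. ERO1LB at 1.08 and CALR at 0.68 also held a match and were past the rule. The members with a match that were not past it were HYOU1 at 0.45, HSP90B1 at 0.41, PDIA6 at 0.29 and CANX at 0.10. The 11 members with ERSE or ERSE-II had a median A2780s log2 ratio of 0.92 with 7 past the rule, and the 24 with a window and neither element had 0.47 with 10 past the rule, a group that holds DNAJB9, SYVN1, SEL1L, DNAJC3 and EIF2AK3. Among the gene names that are not members and could be matched to a window, 24 held either element, with a median of 0.06 and 4 past the rule (16.7%), against -0.01 and 3.44% for the 12597 without. A match is a description of letters, and these groups were not tested against each other.

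Other genes of the same pathways differed less in A2780s, apart from the PERK and ATF4 branch. The lists were chosen with earlier results of these data known, so their counts are a description and not a test. Of the genes of that branch, the study itself named ATF3, ATF4 and DDIT3 as upregulated nodes in A2780s, and with them the member XBP1. All 11 of the genes listed for that branch were past the rule, with a median log2 ratio of 1.48. The largest were ATF3, a stress-induced transcription factor, at 3.20, DDIT3 (CHOP), the factor tied to cell death in prolonged ER stress, at 2.91, and CHAC1, which degrades glutathione, at 2.31. Of 30 further folding and glycosylation genes 1 was past it, the thioredoxin-like TXNDC11 at 0.65, and of 20 further ERAD genes 0 were. Of 36 further translocation and transport genes 2 were, SEC31A of the COPII coat at 0.79 and COPB1 of the COPI coat at 0.61, and of 15 further sensors and regulators 0 were. None of the genes of these lists was past the rule on the lower side. Over all gene names measured, 3.42% were past it on the higher side and 1.43% on the lower. Outside the PERK and ATF4 branch, the counts on the higher side were thus 0 or near the share of all gene names.

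In SKOV3 the members moved in both directions, and SDF2L1, CRELD2 and PDIA4 rose in the sh-labelled RNAs. Of the 39 members tested, these 3 were called higher, being at least 2-fold up with an adjusted p by limma no greater than 0.05, and 0 were called lower, against 3.45% and 4.47% of 18740 gene names. Without the fold threshold, 12 members were higher and 6 lower at that adjusted p, against 16.5% and 16.3% of all gene names. At an unadjusted p of 0.05 by limma these counts were 12 and 7. With the RNA labelled sh-S1 left out, 5 members were at least 2-fold higher on the mean with 1 sign on both arrays, MANF and PDIA6 being added, and with that labelled sh-S2 left out HERPUD1 was lower by this rule. The median log2 ratio was 0.04 over the members tested and 0.01 over all gene names. SEC61B was not tested since its brightest probe had outlier spots on 2 of the arrays, and ERO1LB since it was well above background on only 2 of 4 arrays in the clones and in Ctrl.

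**Figure D3:**
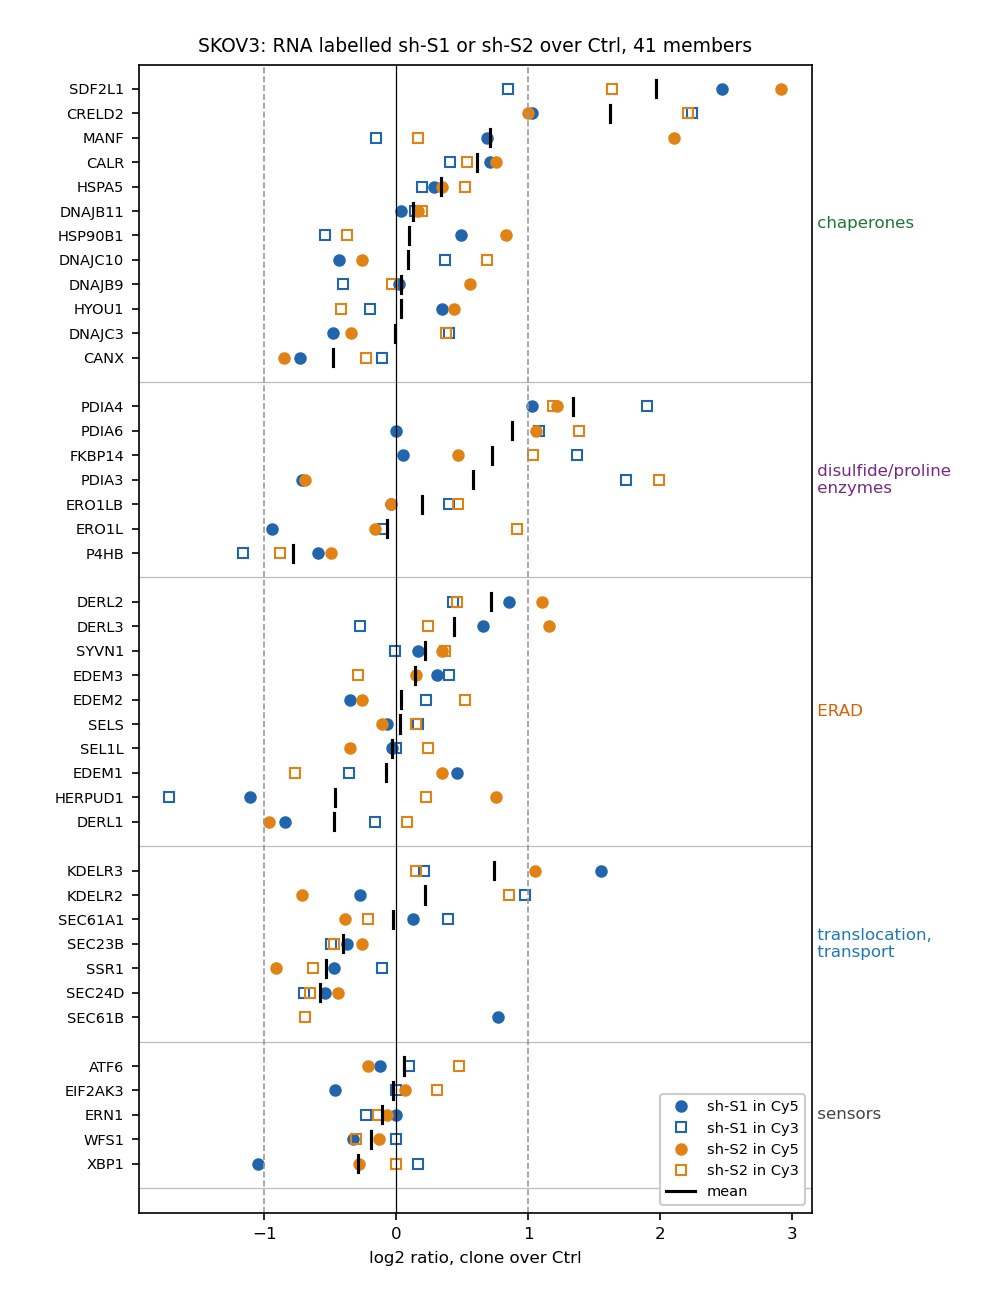
Log2 ratio over Ctrl in SKOV3 cells for the 41 members, grouped by role, for the RNA labelled sh-S1 (blue) and that labelled sh-S2 (orange). Filled circles have the clone in Cy5 and open squares in Cy3, vertical bars are means of the clones, and dashed lines mark 2-fold. SDF2L1, CRELD2 and PDIA4 have their means beyond the right dashed line, at 1.97, 1.62 and 1.34, and SEC61B and ERO1LB were not tested.

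SDF2L1 had log2 ratios of 2.47 and 0.85 for the RNA labelled sh-S1 and of 2.92 and 1.64 for that labelled sh-S2, in the order clone in Cy5 and clone in Cy3. Its mean was 1.97 ± 0.44 (SD of the 2 clones, as for every ± below), or 3.92-fold, with an adjusted p of 0.000176 by limma. CRELD2 gave 1.03 and 2.24, then 1.00 and 2.21, with a mean of 1.62 ± 0.02 (adjusted p = 5.03e-05 by limma). All 8 of these ratios were above 0, yet within a clone the dye orientations differed more than the clones did. PDIA4, an ER oxidoreductase, gave 1.03 and 1.90, then 1.22 and 1.19, with a mean of 1.34 ± 0.19 (adjusted p = 0.000193 by limma). These genes were also measured in A2780s, where SDF2L1 and CRELD2 were past the rule at 0.94 and 0.92 and PDIA4 was at 0.52.

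The same 3 genes had levels in A2780s Ctrl that lay close to those of the sh-labelled RNAs. On the log2 Cy3 scale, SDF2L1 was at 13.53 and 13.88 in SKOV3 Ctrl, at 14.90 and 15.54 in the sh-labelled RNAs, and at 15.17 in A2780s Ctrl. CRELD2 was at 11.24 and 11.36, at 12.95 and 13.05, and at 13.11 in the same order. PDIA4 was at 11.20 and 11.23, at 12.73 and 13.27, and at 13.22. For each of these probes the A2780s Ctrl level was nearer to both sh-labelled RNAs than to SKOV3 Ctrl. This order was also seen for ERBB2, KRT18 and PAX8, and not for EPCAM, WT1 or TGFB1I1. EPCAM was at 8.14 and 7.96 in SKOV3 Ctrl, at 7.06 and 7.06 in the sh-labelled RNAs, and at 8.01 in A2780s Ctrl. Of 40 members with a Cy3 level in each RNA, 14 had the order of those 3 genes (35%), against 40.9% of 18611 gene names tested in SKOV3. It was found for 6 of 8 cell line markers. Among these 6 were MUC16, from 7.29 to 7.55 in these RNAs, and KRT7, which was not well above background in A2780s. In these levels the slide and the cell line cannot be told apart.

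**Figure D4:**
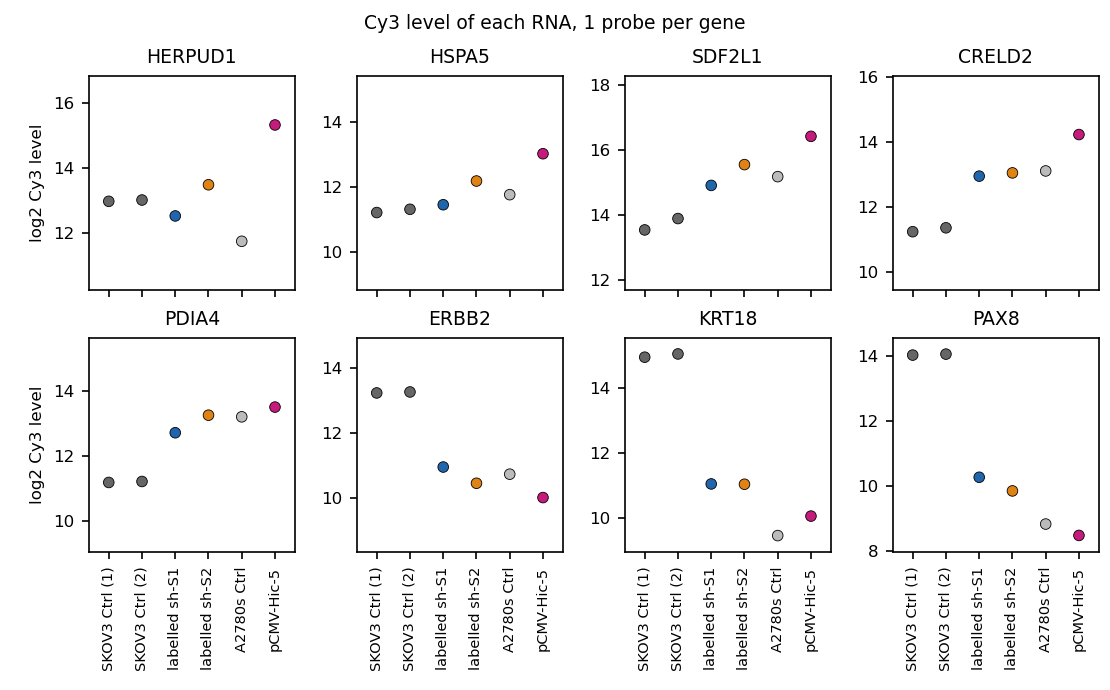
Log2 level in the Cy3 channel of each RNA for 1 probe per gene, after loess and between-array normalization of the channels, with SKOV3 Ctrl shown from the array shared with sh-S1 (1) and with sh-S2 (2). Axes have the same span but different positions, since levels of different probes are not compared. ERBB2, KRT18 and PAX8 are high in SKOV3 Ctrl and low in the other RNAs, and SDF2L1, CRELD2 and PDIA4 are lowest in SKOV3 Ctrl, with PDIA4 at 11.20 and 11.23 there.

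HERPUD1, the highest member in A2780s, had opposite signs in the SKOV3 clones. Its log2 ratio was -1.11 and -1.72 for the RNA labelled sh-S1 and 0.76 and 0.23 for that labelled sh-S2, a difference between clones of 1.92 that was the largest among the members, whose median difference was 0.19. With a mean of -0.46 ± 1.36 (SD, n = 2 clones) it was not called (adjusted p = 0.443 by limma). The difference between the clones was not tested, since the arrays of a clone hold the same RNAs. On the log2 Cy3 scale HERPUD1 stood at 12.98 and 13.02 in SKOV3 Ctrl, at 12.53 and 13.49 in the sh-labelled RNAs, at 11.75 in A2780s Ctrl and at 15.33 in pCMV-Hic-5. Its dim second probe gave 0.04 in SKOV3. Clone differences above 0.5 were found for 7 members, among them ERO1L, with -0.52 and 0.38, and MANF, with 0.27 and 1.14 as clone means. Of the 39 members tested, 6 had a ratio more than 0.5 higher for the RNA labelled sh-S2 and 1 had it more than 0.5 lower. Over all gene names tested these shares were 2.42% and 3.36%. The 10 other members that were at least 2-fold higher in A2780s and tested in SKOV3 ran there from SEC24D at -0.58 to MANF at 0.71, and 0 of them were called. Of these, DNAJB9 at 0.04 ± 0.32, SEL1L at -0.03 ± 0.03, DNAJC3 at -0.01 ± 0.04 and EIF2AK3 at -0.02 ± 0.30 lay nearest 0, while 4 passed the adjusted p by limma without the fold, namely SEC24D, HSPA5, DERL3 and MANF.

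Of the 18 members past the adjusted p, 13 had the same sign on all 4 arrays, 8 of them higher and 5 lower, and all but the 3 called were short of 2-fold. Beside those 3, the higher ones were CALR at 0.61 ± 0.07 and HSPA5 at 0.34 ± 0.13 among the chaperones, FKBP14 at 0.73 ± 0.03 among the enzymes, DERL2 at 0.72 ± 0.10 in ERAD and KDELR3 at 0.74 ± 0.20 in transport. Their adjusted p ran from 0.00147 for FKBP14 to 0.0408 for HSPA5 by limma. The lower ones were P4HB, a disulfide isomerase, at -0.78 ± 0.14 (adjusted p = 0.00149), SEC24D at -0.58 ± 0.05, SSR1 at -0.53 ± 0.34, CANX at -0.48 ± 0.09 and SEC23B at -0.40 ± 0.04. Thus the lectin chaperones CALR and CANX, and the isomerases PDIA4 and P4HB, moved in opposite directions by their brightest probes. A dimmer CANX probe gave -0.15 (adjusted p = 0.293 by limma). SEC24D and SEC23B, lower here, were past the rule on the higher side in A2780s, and KDELR3, higher here, was the lowest member there. A second SEC23B probe gave -0.02 in SKOV3 (adjusted p = 0.928 by limma) and 0.41 in A2780s, short of the rule. The remaining 5 members past the adjusted p did not have 1 sign on all arrays. Among them PDIA3, with a mean of 0.58 and an adjusted p of 0.00449 by limma, gave -0.71 and -0.69 with the clone in Cy5 and 1.74 and 1.99 with the clone in Cy3. Such dye differences were common, since the arrays of a clone had the same sign for 21 of 39 members for the RNA labelled sh-S1 and 23 for that labelled sh-S2, against 56.1% and 57.2% of all gene names, and 15 of 39 had 1 sign on all arrays, against 37.9%.

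The groups of members differed in their SKOV3 medians, which were 0.66 for the disulfide and proline enzymes, 0.12 for the chaperones, 0.03 for ERAD, -0.11 for the sensors and -0.21 for translocation and transport, and which were not tested against each other. Of the 5 sensors and linked genes 0 passed the adjusted p by limma and XBP1 alone had an unadjusted p below 0.05 (0.0363), with values from XBP1 at -0.29 ± 0.21 to ATF6 at 0.06 ± 0.10. Of the further pathway genes 106 were tested, 4 were called higher (3.77%) and 3 lower (2.83%), shares near those of 3.45% and 4.47% over all gene names. These were the proline isomerase FKBP10 at 2.12 (adjusted p = 1.8e-05 by limma), PPIB, a cyclophilin of the ER, at 1.21, the J-domain protein DNAJC1 at 1.01 and ASNS, asparagine synthetase, at 1.49 on the higher side. On the lower side they were SRP14 of the signal recognition particle at -1.45, the translocon partner TRAM1 at -1.21 and the transcription factor CEBPB at -1.13 ± 0.78.

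**Figure D5:**
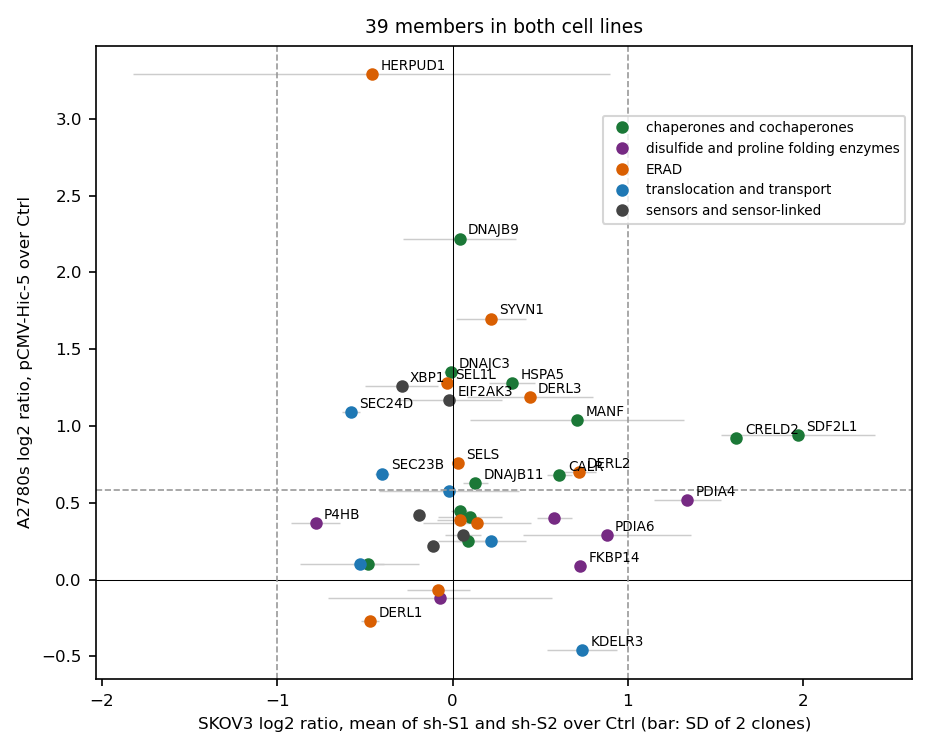
Log2 ratio in A2780s (vertical axis) against the mean log2 ratio in SKOV3 (horizontal axis, bars are the SD of the 2 clones) for the 39 members with values in both, coloured by role. Dashed lines mark 1.5-fold on the vertical axis and 2-fold on the horizontal axis. SDF2L1 and CRELD2 are the members past both rules, and HERPUD1 at the top has the longest bar, with an SD of 1.36.

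Set side by side, the profiles of the members in the cell lines did not follow each other. Across the 39 members with a value in both, Pearson's r was -0.036 and Spearman's rho 0.07, which describes genes read on the same arrays and not replicates. Between the dye-swapped arrays of a clone, r across members was 0.376 for sh-S1 and 0.358 for sh-S2, and 0.931 for pCMV-Hic-5. The part of this spread between SKOV3 arrays in the low correlation of the lines was not tested. Both members past both rules, SDF2L1 and CRELD2, were higher in each. In A2780s the ERAD and chaperone groups had the highest medians and the enzymes one of the lower ones, whereas in SKOV3 the enzymes had the highest. HERPUD1, DNAJB9 and SYVN1, from 1.70 to 3.29 in A2780s, had SKOV3 means from -0.46 to 0.22.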

How the data were processed

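RNA of 3 modified clones and of their Ctrl clones was measured on 6 arrays, 4 in SKOV3 on 1 slide and 2 in A2780s on a different one, so that the slide cannot be told apart from the cell line or fitted as a block. Spot intensities were deposited by the authors as given by Agilent Feature Extraction (version 10.7.3.1 per the file headers, 8.5.1.1 per the submitters' processing notes), together with processed intensities and log10 ratios of Cy5 over Cy3. The deposited series values are these log10 ratios, not turned on the dye-swapped arrays, and were not used. The study's background correction and normalization are not given in the sources used here.

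In limma 3.58.1 (R 4.3.3), background was corrected with normexp (offset 50), leaving out spots with outlier flags or a local background above 1000, and ratios were normalized within arrays by loess (span 0.3). Control spots were left out, spots of a probe averaged, dye swaps of a clone averaged, and the 2 SKOV3 clones tested against 0 with lmFit and eBayes, with Benjamini-Hochberg adjustment over 24958 probes (adjusted p of at most 0.05, at least 2-fold). In A2780s a mean of at least 1.5-fold with the same sign on both arrays was required, among 30531 probes. Probes entered if well above background in Ctrl on all arrays of the line, or on both arrays of a clone in that clone. The fit was tested on simulated data. Groups came from the sample labels, and precision is limited by the signal over background and by how few arrays there are. The members and gene lists were chosen with earlier results of these data known. Each member is given by its brightest probe, and all 41 are named. Other probes are given where they differ by at least 1 on the log2 scale, and some others after their values were seen. Of each further list, at most the 3 called genes with the largest ratio per cell line are named. Alternatives were Feature Extraction's processed signals, normexp on all spots or with offset 0, median centring, no filter on dim probes, the mean over a gene's probes, single dye orientations, single clones and other thresholds.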

Additional observations from a re-analysis of the deposited data

How the results depend on the processing

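In A2780s the number of members past the rule stayed between 15 and 22 under the alternatives that kept the fold, and 0 members were past it on the lower side in each. At 2-fold on the mean, an alternative chosen after seeing the data, it was 12. Of the 19 members past the rule 14 were past it under all 8 other settings, and CALR, DNAJB11, DERL2, SELS and SEC23B were short of it in 1 or 2 of them. In SKOV3 the members called higher numbered 6 with processed signals, 5 with the clone in Cy5, 6 with the clone in Cy3 and 12 with no fold threshold, and between 3 and 5 with 1 clone left out, where MANF and PDIA6 were added without sh-S1. Members called lower numbered 1 with the clone in Cy3, which was P4HB, and 6 with no fold threshold, and ranged from 0 to 1 with 1 clone left out, HERPUD1 without sh-S2. The median SKOV3 ratio was 0.16 with processed signals, -0.09 with the clone in Cy5, 0.15 with the clone in Cy3, and 0.05 to 0.18 with 1 clone left out. The cause of these shifts was not tested. SDF2L1, CRELD2 and PDIA4 stayed called in each of 10 settings, from 1.01 to 2.70. With 1 clone left out no test is possible, and 2-fold with the same sign on both arrays was used. No paired analysis was possible because the replicate numbers of a clone mark the dye orientations of 1 RNA pair, which were averaged, and each ratio already sets a clone against Ctrl on the same array. In Cy5 the SKOV3 arrays were dim, with 43.7% to 63.6% of spots well above background, which limits what low members can show.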

Other observations

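Of the 10 genes of the PERK and ATF4 branch tested in SKOV3, which belong to no member group, 7 had a log2 ratio more than 0.5 higher for the RNA labelled sh-S2 than for that labelled sh-S1, as HERPUD1 did, and 0 the reverse, against 2.42% and 3.36% of all gene names. PPP1R15A, SESN2 and CEBPG were not among the 7, with clone means of -0.16 and -0.07, 0.80 and 0.72, and -0.21 and -0.23. The list was looked at in this way after its values were seen. TRIB3, a pseudokinase induced by ATF4 and DDIT3, gave -1.59 and -2.23 for the RNA labelled sh-S1 and 0.43 and 0.32 for that labelled sh-S2. DDIT3 gave -0.19 and 0.01, then 1.20 and 1.77. Neither was called in SKOV3, at adjusted p values of 0.268 and 0.158 by limma, and the difference between the clones was not tested.

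Among the genes outside the member list whose promoter window held ERSE or ERSE-II, those past the rule in A2780s were FICD, which modifies HSPA5, at 2.00, SERP1, a translocon-associated protein, at 0.89, ALG12, a mannosyltransferase of N-glycan assembly, at 0.77, and NUCB1, a calcium-binding Golgi protein, at 0.63. They were named after their values were seen.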
